A study of Homo sapiens with 20 samples.

Results

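The cyclin D genes CCND1, CCND2 and CCND3, the kinase genes CDK4 and CDK6, the inhibitor genes CDKN1B, CDKN2A, CDKN2B and CDKN2C, and the retinoblastoma gene RB1 were examined by ATAC-seq, in which DNA open to a transposase is tagged and sequenced. These 10 genes, of 20033 protein-coding genes in the RefSeq annotation, were listed by name. Every deposited interval (peak) that overlapped the gene body or 50 kb either side of it was recorded. The cells were LOVO and RKO, established lines of human colon cancer. Within each line the groups were shMETTL3 with olaparib (2 samples), shControl with olaparib (2 samples), shMETTL3 without drug (2 samples) and shControl without drug (4 samples, of which 2 carry a batch label). All cells thus carried a short hairpin RNA, either one against METTL3, the enzyme subunit that methylates RNA at N6-adenosine, or a control hairpin. Olaparib inhibits poly(ADP-ribose) polymerase, and its dose and time are not given in the sources used here. Nor is it given whether the cells were single clones. By its title, the series concerns demethylation of LINE1 RNA, chromatin accessibility and drugs against DNA repair.

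D-type cyclins bind and activate CDK4 and CDK6, and these kinases phosphorylate the RB1 protein. Phosphorylated RB1 lets go of E2F transcription factors, and the cell passes from G1 into S phase. The INK4 proteins encoded by CDKN2A, CDKN2B and CDKN2C block CDK4 and CDK6, while p27, the product of CDKN1B, acts mainly on CDK2 complexes. In colon tumours with an active Wnt pathway, CCND1 is a known target of beta-catenin. CDKN2A is unusual in holding separate starts for separate proteins: the outer start gives p14ARF, which stabilises p53, and the inner one gives the CDK inhibitor p16INK4a.

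The promoters on which the results turn are shown first, from 250 bases before to 50 after an annotated start, 5′ to 3′ along the gene (RefSeq, GRCh38.p14, the assembly that hg38 names). Both CDKN2A starts and the CDKN2B start are shown because their state differed within 1 locus. CDK4, CDK6 and CDKN1B are shown because their intervals were missing from the untreated shMETTL3 list of RKO, of LOVO and of both lines, each in turn. The inner CCND3 start is shown because an interval met it in all 10 lists. Capitals mark exact matches to the motifs SP1 (GGGCGG), NFY (CCAAT), ETS (CCGGAAG) and E-box (CACGTG) on either strand.
CDKN2A outer start, chr9:21995275-21995574, minus strand: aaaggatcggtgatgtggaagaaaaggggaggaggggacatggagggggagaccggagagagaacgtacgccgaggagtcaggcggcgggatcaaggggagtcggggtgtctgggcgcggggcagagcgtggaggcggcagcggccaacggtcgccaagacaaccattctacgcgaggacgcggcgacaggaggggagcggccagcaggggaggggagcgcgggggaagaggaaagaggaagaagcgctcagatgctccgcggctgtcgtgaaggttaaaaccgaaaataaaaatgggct
CDKN2A inner start, chr9:21974808-21975107, minus strand: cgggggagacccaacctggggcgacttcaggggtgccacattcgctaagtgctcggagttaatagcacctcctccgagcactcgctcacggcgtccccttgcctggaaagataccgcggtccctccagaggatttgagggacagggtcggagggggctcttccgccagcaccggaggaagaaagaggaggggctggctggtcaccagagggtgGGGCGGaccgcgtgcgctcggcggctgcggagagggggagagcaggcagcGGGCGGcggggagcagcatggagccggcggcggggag
CDKN2B start, chr9:22009256-22009555, minus strand: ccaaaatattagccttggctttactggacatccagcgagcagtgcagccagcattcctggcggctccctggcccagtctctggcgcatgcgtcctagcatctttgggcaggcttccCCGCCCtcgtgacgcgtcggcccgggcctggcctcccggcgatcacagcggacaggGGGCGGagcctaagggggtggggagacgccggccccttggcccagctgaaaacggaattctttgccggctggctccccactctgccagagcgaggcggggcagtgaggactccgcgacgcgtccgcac
CDK4 start, chr12:57752261-57752560, minus strand: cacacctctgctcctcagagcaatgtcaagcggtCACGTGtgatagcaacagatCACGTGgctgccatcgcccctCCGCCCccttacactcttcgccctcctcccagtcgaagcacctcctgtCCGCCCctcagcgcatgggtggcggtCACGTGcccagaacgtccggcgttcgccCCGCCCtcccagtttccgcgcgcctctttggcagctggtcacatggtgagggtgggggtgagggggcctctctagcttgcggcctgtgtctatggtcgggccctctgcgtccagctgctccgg
CDK6 inner start, chr7:92833910-92834209, minus strand: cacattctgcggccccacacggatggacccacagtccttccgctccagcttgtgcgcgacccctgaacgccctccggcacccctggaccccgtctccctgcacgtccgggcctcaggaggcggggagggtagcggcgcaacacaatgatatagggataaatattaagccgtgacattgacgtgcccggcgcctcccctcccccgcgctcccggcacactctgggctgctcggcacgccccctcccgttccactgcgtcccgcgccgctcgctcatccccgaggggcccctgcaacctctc
CDKN1B start, chr12:12717118-12717417, plus strand: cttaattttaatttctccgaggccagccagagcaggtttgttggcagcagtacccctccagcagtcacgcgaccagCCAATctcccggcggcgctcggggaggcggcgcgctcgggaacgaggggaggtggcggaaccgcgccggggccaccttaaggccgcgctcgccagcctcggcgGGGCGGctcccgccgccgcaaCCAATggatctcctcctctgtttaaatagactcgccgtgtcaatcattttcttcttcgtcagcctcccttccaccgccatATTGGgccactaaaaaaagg
CCND3 inner start, chr6:41941759-41942058, minus strand: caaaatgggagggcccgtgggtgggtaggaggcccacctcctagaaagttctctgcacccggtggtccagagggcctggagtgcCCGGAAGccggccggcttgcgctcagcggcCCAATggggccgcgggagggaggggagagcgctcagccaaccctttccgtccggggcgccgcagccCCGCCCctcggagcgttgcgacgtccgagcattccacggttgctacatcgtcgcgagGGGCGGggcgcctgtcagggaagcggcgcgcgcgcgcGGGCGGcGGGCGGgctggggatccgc
The RefSeq promoter table held 14 starts for 8 of the genes; CCND1 and CCND2 had no entry, and the RB1 entry is an internal start. An SP1 match lay in 9 of the 14 promoters, against 56.3% of 22198 promoters of protein-coding genes. NFY was matched in 4 of 14 (34.7% of all promoters), the E-box in 4 of 14 (8.34%) and ETS in 1 of 14 (12.8%). E2F (TTTGGCGC or TTTCGCGC, 0.815% and 0.712% of all promoters), CRE (TGACGTCA, 2.26%), AP-1 (TGACTCA, 4.01%), TCF/LEF (CTTTGAT, 1.98%) and the TATA box (TATAAA, 9.47%) were matched in none. No match overlapped one of another motif. These are matches of letters in a 300-base window and say nothing of binding. The CDK4 promoter held 3 E-box and 3 SP1 matches, and the CDKN1B promoter 3 NFY matches and 1 SP1 match. The inner CDK6 and outer CDKN2A promoters held no match to any motif searched. Median GC content was 66.7% over the 14 promoters and 62.3% over all promoters.

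The files are 10 peak lists, 5 per line, and each stands for a group. The lists do not tell samples apart, no test between groups could be made, and every comparison here describes lists. Their depth is unknown, and weaker libraries can give shorter lists. Untreated shMETTL3 stands apart as the smallest list of its line, with 16417 intervals in LOVO and 6916 in RKO, while the other lists held 32192 to 51462 in LOVO and 21210 to 35455 in RKO. Untreated shControl has 2 lists per line: a merged list without scores and a scored list, which set the only measure of spread but differ in form. An interval was called lost when no interval of the other list met it and gained in the opposite case. Of 6 epithelial genes (EPCAM, KRT8, KRT18, KRT19, CDH1 and CLDN4), 3 to 6 had a gene-start interval in the LOVO lists and 1 to 3 in the RKO lists, where KRT19, CDH1 and CLDN4 had none in any list. Peak lists hold no transcript levels, so the knockdown was not checked. METTL3 had a gene-start interval in all 10 lists.

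The 10 windows held 448 intervals over all lists, from 92 to 1616 bp wide, which joined into 88 separate regions. In LOVO the windows together held 70 intervals with shMETTL3 and olaparib, 49 with shControl and olaparib and 19 with untreated shMETTL3, against 45 and 64 in the merged and scored untreated shControl lists. In RKO the same lists held 61, 43 and 15, against 44 and 38. The median density over the 10 genes was above the median over all genes in every list but untreated LOVO shMETTL3 (0.909 against 0.929 per 100 kb). Single genes went below it: RB1 was denser than at most 32.8% of all genes in any list, and CCND1, CCND2, CDK6, CDKN2A and CDKN2C were under the 50th percentile in 1 to 3 lists each. In the merged untreated shControl lists the median over the 10 genes was 2.98 against 1.96 intervals per 100 kb in LOVO and 3.04 against 1.97 in RKO. CDK6 had the most intervals in LOVO, and RB1 the fewest or equal fewest in 8 of the 10 lists.

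**Figure D1:**
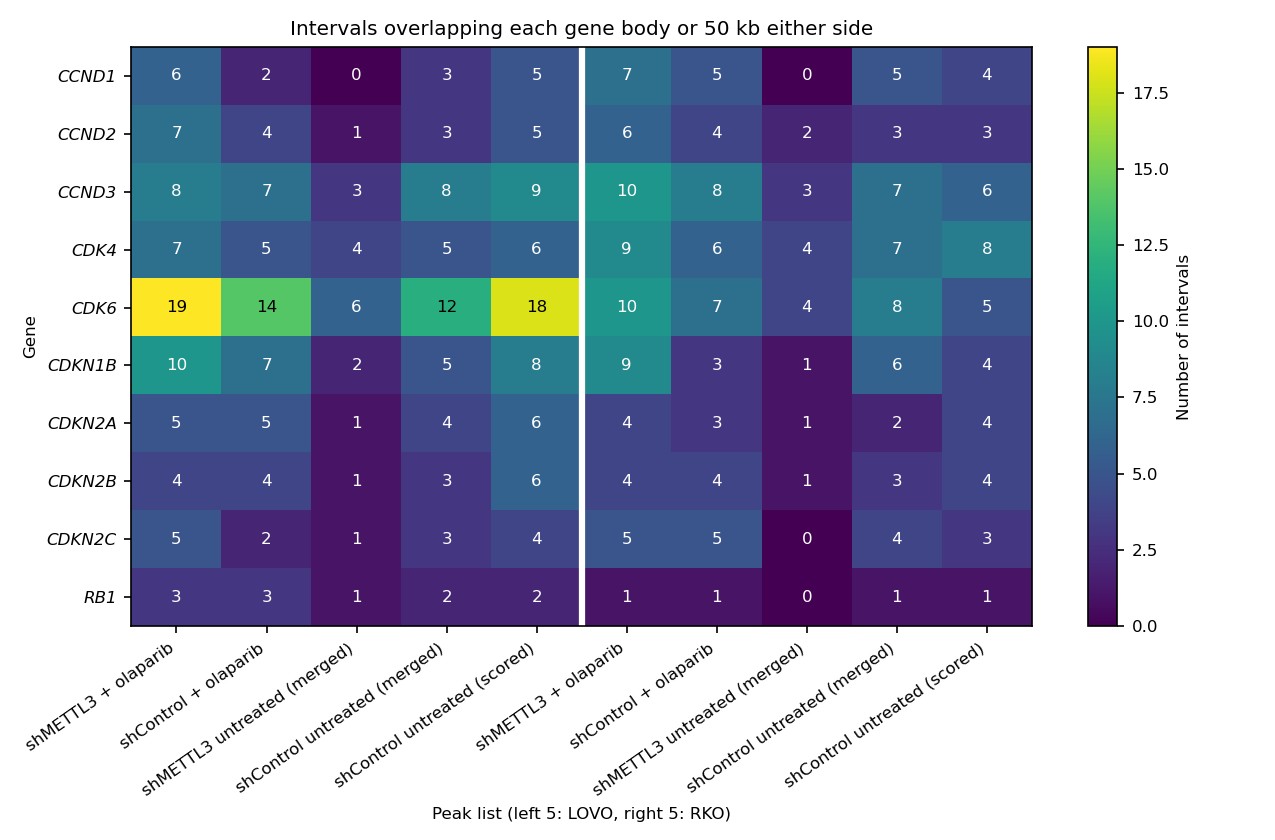
Number of intervals overlapping each gene body or 50 kb either side of it (rows) in each peak list (columns, LOVO left and RKO right). CDK6 reached 19 intervals in LOVO with shMETTL3 and olaparib and 10 in RKO, and the untreated shMETTL3 column is the lowest for every gene in each line.

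A gene is called open in a list when an interval lay within 1 kb of an annotated start, and closed otherwise, which at unknown depth says only that no interval was listed. Of the 10 genes 9, 8 and 5 were open in LOVO with shMETTL3 and olaparib, shControl and olaparib, and untreated shMETTL3, against 9 and 9 in the merged and scored untreated shControl lists. In the same lists 60.0%, 54.9% and 37.0% of all genes were open, against 52.7% and 57.4%. The RKO counts were 10, 8 and 3, against 9 and 8, beside 56.7%, 53.9% and 26.4% of all genes, against 56.3% and 49.2%. CDKN2B and CCND3 were open in all 10 lists. CDK4, CDKN2C and RB1 lacked a start interval in untreated RKO shMETTL3 alone, and CDK6 in untreated LOVO shMETTL3 alone. CDKN1B and CDKN2A were open in 8 lists, all but the untreated shMETTL3 list of each line. CCND1 was open in 5 lists and CCND2 in 1, with either gene end counted as a start for both. At its left end, the textbook start, CCND1 was open in 4 lists. The RKO count of 10 includes CCND1 by its far end only. Over all protein-coding genes 21.0% were open in 10 lists and 34.5% in none.

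**Figure D2:**
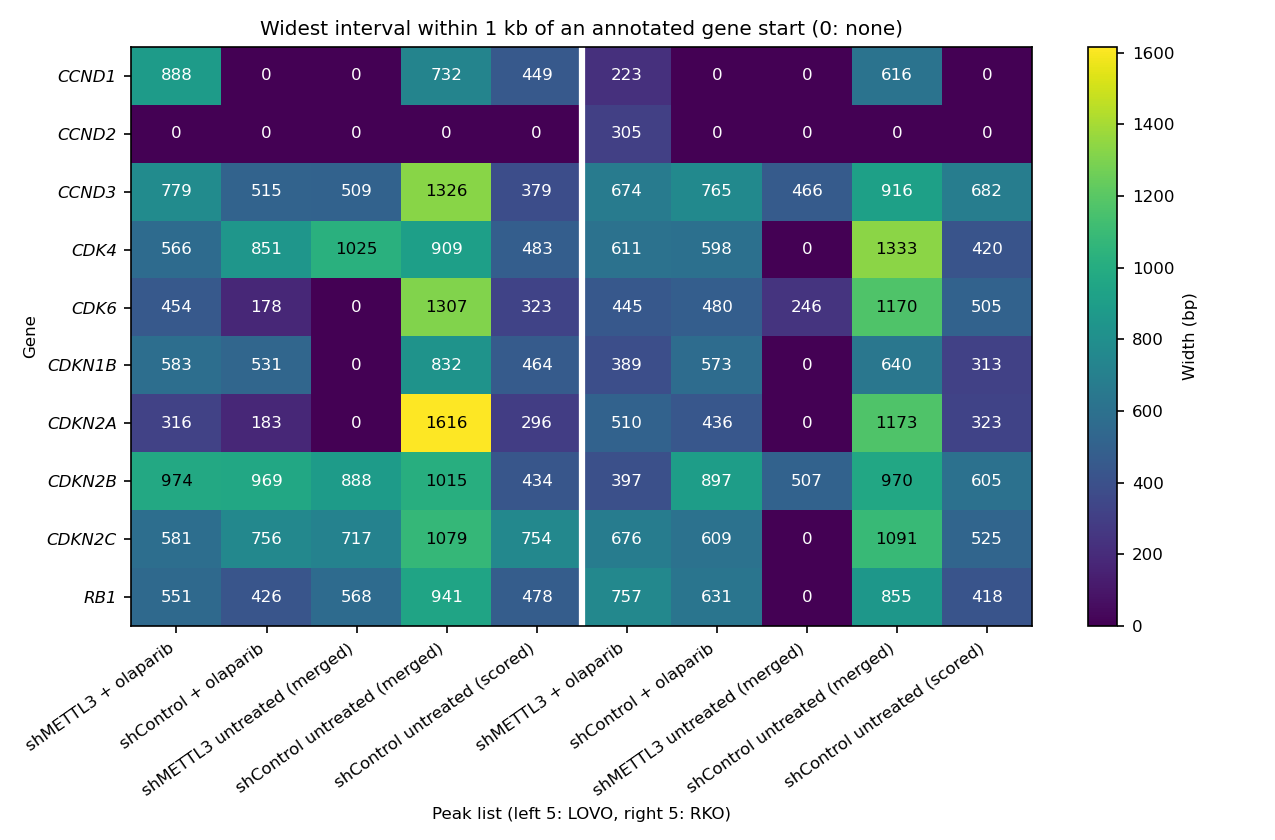
Width in bp of the widest interval within 1 kb of an annotated start of each gene (rows) in each peak list (columns); 0 means no such interval. CDKN2B and CCND3 have a width in every column, while CCND2 has only the 305 bp of RKO shMETTL3 with olaparib. For CCND1 and CCND2 either gene end counted as a start. The CCND1 widths of 888 bp (LOVO shMETTL3 with olaparib), 449 bp (LOVO scored untreated shControl) and 223 bp (RKO shMETTL3 with olaparib) lie at its far end.

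CCND1 encodes cyclin D1 and lies on chromosome 11 from 69641156 to 69654474 (hg38). Its window held 6 intervals in LOVO with shMETTL3 and olaparib, 2 with shControl and olaparib and 0 with untreated shMETTL3, against 3 and 5 in the merged and scored untreated shControl lists. In RKO it held 7, 5 and 0, against 5 and 4. The untreated shMETTL3 lists were therefore empty over the whole window in both lines, and no other of the 10 genes was empty in both. Among genes with an interval in the merged shControl lists of both lines, 8.38% were empty in both shMETTL3 lists. Within one line, emptied windows were 14.2% in LOVO and 34.8% in RKO. Of genes that, like CCND1, had 3 intervals in the merged LOVO shControl list, 10.1% were empty in LOVO shMETTL3, and of those with 5 in the merged RKO list 21.7% were empty in RKO shMETTL3.

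At the CCND1 start itself LOVO had an interval of 345 bp with shMETTL3 and olaparib and none with shControl and olaparib or untreated shMETTL3, against 732 and 254 bp in the merged and scored untreated shControl lists. RKO had none in its olaparib or shMETTL3 lists, against 616 bp in the merged shControl list and none in the scored one. The 2 RKO control lists thus already differed at this start. A region at -2.0 kb, before the start, was in 3 LOVO and 4 RKO lists. By score it stood at percentiles 19.2 to 51.9 of the LOVO lists and 0.4 to 4.9 of the scored RKO lists. Regions 2.1, 3.4 and 4.2 kb into the gene were found only in RKO lists, in 2, 3 and 1 of them. Their scored intervals were among the weakest of their lists, at percentiles 0.1 to 8.3. The region 34.0 kb after the start, next to the annotated boundary of LTO1, was in every list but the 2 untreated shMETTL3 lists. Another at 44.8 kb was in 3 lists of each line. An interval at the far end of the gene also counted as a start, because the promoter table gives no strand for CCND1. With the left end alone, the textbook start, RKO shMETTL3 with olaparib had no CCND1 start interval.

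**Figure D3:**
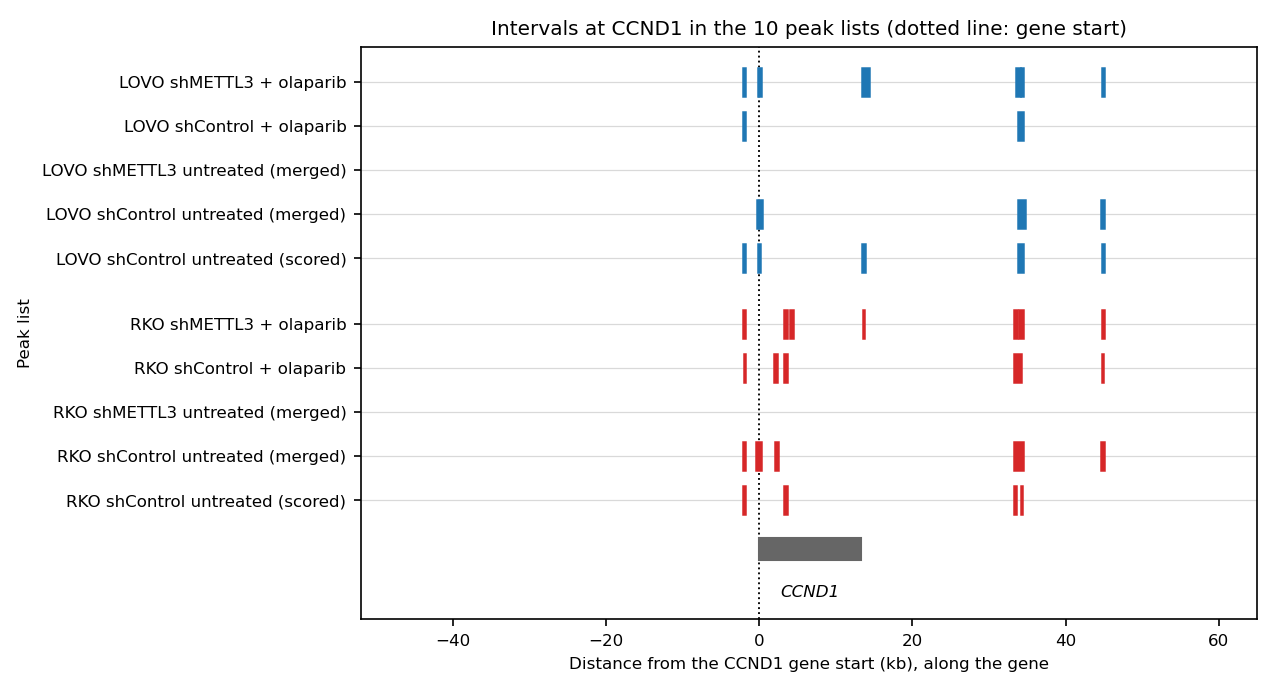
Intervals around CCND1 in the 10 peak lists, drawn to scale with a thin outline, by distance in kb from the gene start (dotted line), LOVO in blue and RKO in red. Both untreated shMETTL3 rows are empty, and the region 34.0 kb after the start fills the other 8 rows.

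CCND2, on chromosome 12 from 4273762 to 4305353, encodes cyclin D2. In LOVO its window held 7 intervals with shMETTL3 and olaparib, 4 with shControl and olaparib and 1 with untreated shMETTL3, against 3 and 5 in the merged and scored untreated shControl lists. The RKO lists held 6, 4 and 2, against 3 and 3. The start was closed in 9 lists, so most of these intervals lay elsewhere. A region at -1.5 kb, before the start, was in 1 LOVO list and in all 5 RKO lists. Its edge at -1034 bp fell just outside the 1 kb rule. With 2000 bp around the starts, all 10 genes, CCND2 included, were open in the RKO shControl lists. The LOVO list was shMETTL3 with olaparib, where the region was 103 bp wide with a score of 3.22, at percentile 0.5 of the list. In RKO it was 216 bp wide in untreated shMETTL3, against 1018 bp in the merged shControl list. Conversely, a region 5.4 kb into the gene was in 4 LOVO lists and no RKO list. The region at 47.3 kb, at the annotated start of TIGAR, a p53-induced regulator of sugar metabolism, was in all 10 lists. Within LOVO shMETTL3 with olaparib it held the highest score of the 10 windows (22.1, percentile 98.0 of the list).

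CCND3, for cyclin D3, covers 41934933 to 42050035 on chromosome 6. It had 8 intervals in LOVO with shMETTL3 and olaparib, 7 with shControl and olaparib and 3 with untreated shMETTL3, against 8 and 9 in the merged and scored untreated shControl lists. RKO had 10, 8 and 3, against 7 and 6. Its openness in all 10 lists came from the inner start, 108227 bp from the outer one, whose promoter is shown above. Intervals there were 779, 515 and 509 bp wide in LOVO with shMETTL3 and olaparib, shControl and olaparib, and untreated shMETTL3, against 1326 and 379 bp in the merged and scored untreated shControl lists. In RKO they were 674, 765 and 466 bp, against 916 and 682 bp. The outer start was open in 9 lists through a region at -0.6 kb that is also within 1 kb of TAF8, so that it cannot be assigned to either gene. An alternative start at 1347 bp was met in no LOVO list and 3 RKO lists, and the one at 110830 bp in none. At the far edge, a region at -49.8 kb from the outer start was in all 5 LOVO lists and no RKO list.

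CDK4, on chromosome 12 from 57747727 to 57752310, encodes a kinase that D-type cyclins activate. Its window held 7, 5 and 4 intervals in LOVO with shMETTL3 and olaparib, shControl and olaparib, and untreated shMETTL3, against 5 and 6 in the merged and scored untreated shControl lists. In RKO it held 9, 6 and 4, against 7 and 8. Of the 4 intervals with untreated shMETTL3, 3 in LOVO and 4 in RKO lay away from the CDK4 start. In LOVO the CDK4 start kept an interval of 1025 bp with untreated shMETTL3, against 909 bp in the merged shControl list. In RKO it had none with untreated shMETTL3, against 1333 bp. All 300 bases of the CDK4 promoter lay in intervals in 8 lists, 271 bases in the scored RKO shControl list and 0 in untreated RKO shMETTL3. The regions at TSPAN31 (7.2 kb after the start) and at METTL1 and EEF1AKMT3 (-19.9 kb) were in all 10 lists, as was one at 25.9 kb. METTL1 encodes a tRNA methyltransferase. A region at 16.2 kb was in no LOVO list and 4 RKO lists.

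CDK6 encodes the partner kinase of CDK4 and is the longest of the genes, from 92604921 to 92836573 on chromosome 7. In LOVO there were 19 intervals with shMETTL3 and olaparib, 14 with shControl and olaparib and 6 with untreated shMETTL3, against 12 and 18 in the merged and scored untreated shControl lists. RKO had 10, 7 and 4, against 8 and 5. LOVO exceeded RKO in all 5 pairs of like lists, as did 15.4% of all genes. Of its 23 regions 12 were found only in LOVO lists and 5 only in RKO lists, beside 44.7% and 23.8% of all regions. The regions 69.8, 118.2, 140.8 and 190.6 kb into the gene were in all 5 LOVO lists, untreated shMETTL3 included, and in no RKO list. One at 215.4 kb was in no LOVO list and 4 RKO lists. None of these lay at an annotated gene start. Regions in all 5 LOVO lists and no RKO list were 6 of 88 over the 10 windows (6.82%), against 8.07% of all regions.

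The inner CDK6 start, 2614 bp from the outer one, was open in 4 LOVO lists, all but untreated shMETTL3, and in all 5 RKO lists. The interval there was absent in untreated LOVO shMETTL3, against 1307 bp in the merged LOVO shControl list, and 246 bp wide in untreated RKO shMETTL3, against 1170 bp in the merged RKO shControl list. Untreated LOVO shMETTL3 thus held 4 regions within the gene that no RKO list had, but not the start. A region at 26.6 kb was in 4 LOVO and 3 RKO lists, and from there to 194.5 kb no RKO list had an interval. Beyond the end of the gene, the region at FAM133B (246.4 kb) was in all 10 lists.

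**Figure D4:**
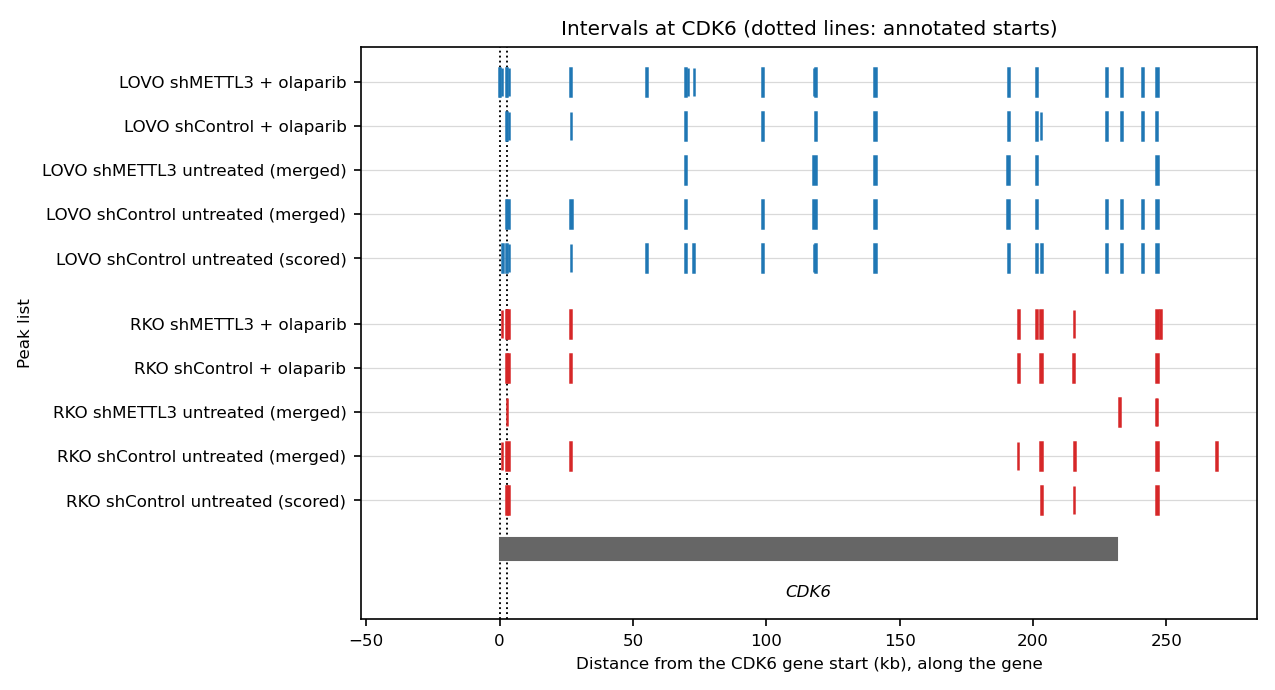
Intervals around CDK6 in the 10 peak lists by distance in kb from the outer gene start, LOVO in blue and RKO in red, with dotted lines at the annotated starts. The regions at 69.8, 118.2, 140.8 and 190.6 kb run through the 5 LOVO rows and are missing from the RKO rows.

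CDKN1B, on chromosome 12 from 12717368 to 12722369, encodes the inhibitor p27. Its window held 10 intervals in LOVO with shMETTL3 and olaparib, 7 with shControl and olaparib and 2 with untreated shMETTL3, against 5 and 8 in the merged and scored untreated shControl lists. In RKO it held 9, 3 and 1, against 6 and 4. The start was open in 8 lists and closed in untreated shMETTL3 of both lines, where the merged shControl lists had 832 bp in LOVO and 640 bp in RKO. This region also lies within 1 kb of GPR19. In the scored untreated shControl lists its score was 6.79 in LOVO and 5.35 in RKO, at percentiles 27.5 and 18.3 of the list. After the gene each line had a region of its own. One at 32.3 kb was in all 5 LOVO lists and no RKO list, with scores of 13.3 to 17.5, and one at 41.6 kb was in no LOVO list and in 4 RKO lists, all but untreated shMETTL3, with scores of 15.2 to 19.6. Both had higher scores than the start in every scored list that held them.

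CDKN2A and CDKN2B are neighbours on chromosome 9, from 21967752 to 21995324 and from 22002903 to 22009313, so that their windows share 4 regions. The CDKN2A window held 5, 5 and 1 intervals in LOVO with shMETTL3 and olaparib, shControl and olaparib, and untreated shMETTL3, against 4 and 6 in the merged and scored untreated shControl lists. In RKO it held 4, 3 and 1, against 2 and 4. The CDKN2B window held 4, 4 and 1, against 3 and 6, in LOVO and 4, 4 and 1, against 3 and 4, in RKO. In untreated shMETTL3 of either line the interval left in both windows was the same one, at the start of CDKN2B.

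The 3 main starts of this locus were in different states. At CDKN2B, which encodes the inhibitor p15INK4b, intervals covered all 300 bases of the promoter in 10 of 10 lists. There the interval spanned 888 bp in untreated LOVO shMETTL3, against 1015 bp in the merged shControl list, and 507 bp in untreated RKO shMETTL3, against 970 bp. At the outer CDKN2A start, which gives p14ARF, 8 lists had an interval within 1 kb, 7 of them over part or all of the promoter, and untreated shMETTL3 had none, against 1616 bp in the merged LOVO and 1173 bp in the merged RKO shControl list. At the inner CDKN2A start, which gives p16INK4a, no list had one, and the nearest interval in any list was 19691 bp away. Of the 3 printed promoters of this locus, the inner CDKN2A one had 69.0% G and C, the CDKN2B one 67.3% and the outer CDKN2A one 63.3%. Further out, regions at -46.6 and 75.4 kb from the outer CDKN2A start were each in 4 LOVO lists and no RKO list.

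**Figure D5:**
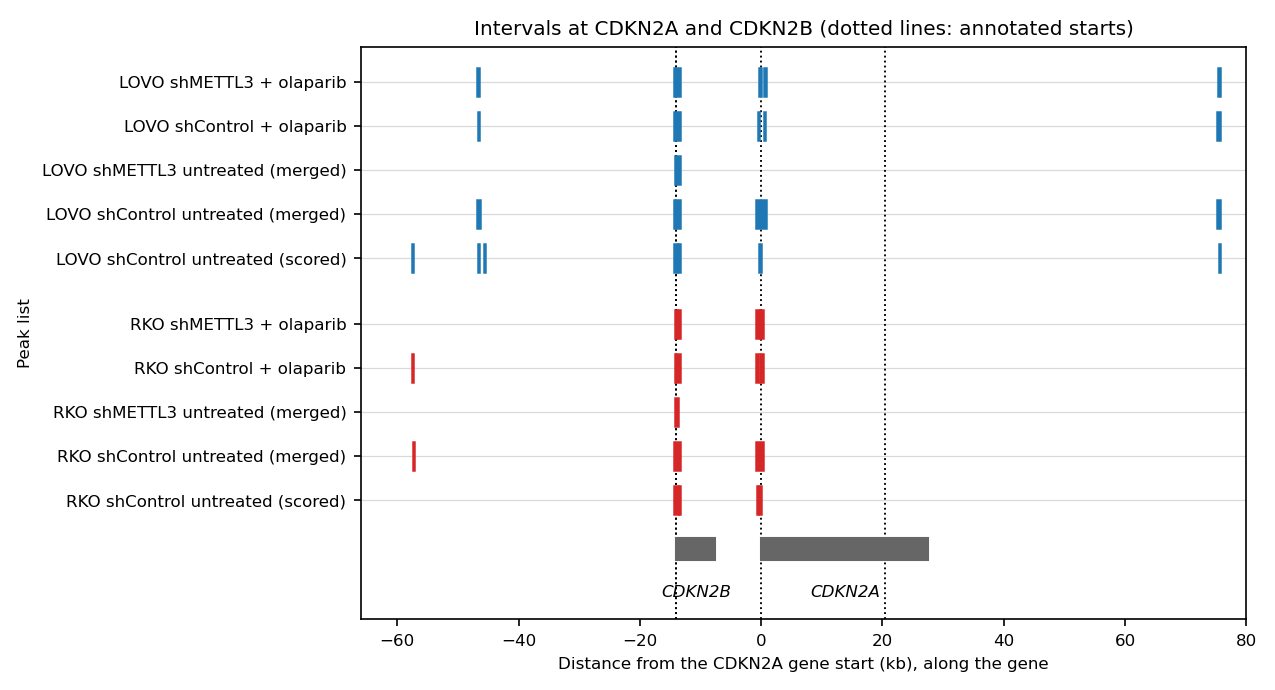
Intervals around CDKN2A and CDKN2B in the 10 peak lists by distance in kb from the outer CDKN2A start, LOVO in blue and RKO in red, with dotted lines at the annotated starts. An interval lies within 1 kb of the CDKN2B start in all 10 rows, of the outer CDKN2A start in 8, and of the inner CDKN2A start, 20467 bp into the gene, in none.

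CDKN2C, on chromosome 1 from 50960745 to 50974634, encodes the INK4 inhibitor p18. It had 5 intervals in LOVO with shMETTL3 and olaparib, 2 with shControl and olaparib and 1 with untreated shMETTL3, against 3 and 4 in the merged and scored untreated shControl lists. RKO had 5, 5 and 0, against 4 and 3. All 4 of its regions were found in both lines. The one at the outer start, which also lies at the boundary of FAF1, was in 9 lists, with 717 bp in untreated LOVO shMETTL3, against 1079 bp in the merged shControl list. The inner starts, 7961 and 9500 bp further on, were open in 8 and 7 lists and in neither untreated shMETTL3 list. In LOVO, then, untreated shMETTL3 kept the outer start, shared with FAF1, and lacked both inner ones.

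RB1, on chromosome 13 from 48303751 to 48481890, had few intervals for its length, its body being the second longest. It held 3, 3 and 1 intervals in LOVO with shMETTL3 and olaparib, shControl and olaparib, and untreated shMETTL3, against 2 and 2 in the merged and scored untreated shControl lists. In RKO it held 1, 1 and 0, against 1 and 1. The start interval was thus the only RKO interval in any list. The start interval was 568 bp wide in untreated LOVO shMETTL3, against 941 bp in the merged shControl list, and missing from untreated RKO shMETTL3, against 855 bp. Its score stood at percentiles 63.2 to 86.9 in the scored lists, so the start that untreated RKO shMETTL3 lacked was above the median score in each of them. Further regions at 97.3, 109.5 (within 1 kb of LPAR6) and 186.8 kb were in 1, 2 and 3 LOVO lists and no RKO list.

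Untreated shMETTL3 was set against untreated shControl, merged list against merged list, to ask which of these genes differed with the hairpin. In LOVO 4 of 9 open genes lost the start interval (CCND1, CDK6, CDKN1B and CDKN2A; 44.4%, 95% exact binomial interval 13.7 to 78.8), against 30.6% of all open genes. In RKO 6 of 9 did (CCND1, CDK4, CDKN1B, CDKN2A, CDKN2C and RB1; 66.7%, 29.9 to 92.5), against 53.4%. At 9 genes these intervals are wide, and they are not a test against the share of all genes. Only CCND2 was closed in the control and could gain one, and it gained none, beside 0.761% of closed genes in LOVO and 0.194% in RKO. CCND1, CDKN1B and CDKN2A were lost in both lines, 3 of 9 genes beside 20.4% of all genes open in both controls, and CCND3 and CDKN2B were kept in both, 2 of 9 beside 44.1%. Set against the scored RKO list instead, CCND1 had no start interval to lose, and with the merged RKO list limited to its widest intervals CCND1 and CDKN1B had none. At the outer start alone CCND3 was lost in LOVO and CDK6 in RKO, while CDK6 had none to lose in LOVO.

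Over the whole windows 18 of 45 shControl intervals were kept in LOVO (40.0%, 25.7 to 55.7) and 13 of 44 in RKO (29.5%, 16.8 to 45.2), while 47.5% and 23.1% of all shControl intervals were kept and 52.5% and 76.9% lost. Kept intervals had a median width of 939 bp in LOVO and 931 bp in RKO, and lost ones 643 and 464 bp. Over the whole lists kept intervals were likewise wider, 741 and 807 bp, than lost ones, 438 and 351 bp. All 10 genes had fewer intervals with shMETTL3 in each line, as did 69.6% of all genes in LOVO and 79.0% in RKO. By place, 10 of 21 LOVO intervals at the start of any protein-coding gene were kept (47.6%) and 8 of 24 elsewhere (33.3%). Of all such LOVO intervals 66.9% and 39.6% were kept, and 33.1% and 60.4% lost. In RKO 11 of 23 (47.8%) and 2 of 21 (9.52%) were kept. Of all such RKO intervals 39.0% and 11.6% were kept, and 61.0% and 88.4% lost. The size of the shMETTL3 lists moves with each of these counts, and its part was not tested. Between the 2 untreated shControl lists no gene was lost in LOVO (2.73% of all genes) and CCND1 alone in RKO (13.7%).

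Olaparib was set against no drug in shControl cells, in the scored lists. Only CCND1 in LOVO lost its start interval (1 of 9 genes, beside 7.04% of all genes), and none of the 8 open genes in RKO did (2.23%). With a window of 2000 bp around the starts CCND1 was not lost in LOVO, as the region at -2.0 kb then counted, but the start interval itself stayed absent. With intervals at or above the median score alone, CCND1 had no start interval to lose in LOVO, its untreated ones lying at percentiles 33.8 and 38.7. None of the closed genes gained one (3.59% of all genes in LOVO and 11.5% in RKO). Of the shControl intervals without drug 45 of 64 were kept in LOVO (70.3%, 57.6 to 81.1) and 36 of 38 in RKO (94.7%, 82.3 to 99.4), while 71.8% and 88.5% of all intervals were kept and 28.2% and 11.5% lost. By number, 9 of 10 genes had fewer intervals with olaparib in LOVO, RB1 being the exception, and 53.3% of all genes had fewer. In RKO 5 genes had more and 3 fewer, while 41.2% of all genes had more. These directions follow the untreated list chosen: against the merged shControl list the windows held 1.09 times as many intervals with olaparib in LOVO and 0.977 in RKO, in place of 0.766 and 1.13. Among intervals at or above the median score of their list, the RKO value was 0.667.

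With olaparib, shMETTL3 was set against shControl to ask whether the hairpins also differed under the drug. No start interval was lost in either line (1.35% of all genes in LOVO and 1.53% in RKO). CCND1 gained one in LOVO and CCND1 and CCND2 in RKO, beside 13.0% and 7.90% of all closed genes. With the 2000 bp window CCND1 already counted as open with shControl and olaparib in both lines, by the region at -2.0 kb. In RKO so did CCND2, by the region at -1.5 kb. These could therefore not be gained, while CCND2 was gained in LOVO. With the score limit, which removed the gained intervals themselves, no gene was gained in either line. The CCND1 gain in RKO lay at the far end of the gene, at percentile 1.2 of its list by score. The CCND2 gain was a 305 bp interval with a score of 4.57, at percentile 9.4 of its list. Of the shControl intervals 44 of 49 were kept in LOVO (89.8%) and 39 of 43 in RKO (90.7%), while 93.4% and 89.5% of all were kept and 6.65% and 10.5% lost. The windows held 70 against 49 intervals in LOVO and 61 against 43 in RKO, 1.43 and 1.42 times as many, and the whole lists 1.60 and 1.37 times as many. Of 10 genes 7 had more intervals with shMETTL3 in each line and none had fewer, while 69.4% of all genes in LOVO and 54.9% in RKO had more.

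Olaparib was also set against no drug in shMETTL3 cells, a scored list against a merged one. Each of the 10 genes had more intervals with olaparib in both lines, as did 85.0% of all genes in LOVO and 84.5% in RKO. All genes that lost a start interval in untreated shMETTL3 were open with shMETTL3 and olaparib. CCND1 in RKO was open only by another interval, at its far end, and the interval it had lost stayed absent. In LOVO the genes were CCND1, CDK6, CDKN1B and CDKN2A, 4 of 5 closed genes, beside 36.6% of all closed genes. In RKO all 7 closed genes were open with olaparib, beside 41.4%, CCND2 by an interval at percentile 9.4 of its list by score. None of the 5 open genes in LOVO and 3 in RKO lost theirs (0.148% and 0.322% of all genes). This comparison shares its shMETTL3 lists with those above and mixes the form of the lists with the drug. The shares of all closed genes also include the 6916 genes open in none of the 10 lists. None of the 10 genes here is among those, so the shares have unlike bases. Whether these genes differ from others in this was not tested.

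Of 30 other genes of the pathway, all matched in the annotation, 28 were open in the merged LOVO and 29 in the merged RKO shControl list. With untreated shMETTL3 9 of 28 lost the start interval in LOVO (32.1%) and 15 of 29 in RKO (51.7%), against the same 30.6% and 53.4% of all genes. Those lost in both lines were 7 of 28, beside 20.4% of all genes, among them CCNA2, which encodes the S-phase cyclin A2, RBL1, the gene of the RB relative p107, and the E2F genes E2F2 and E2F4. Those kept in both were 11 of 28, beside 44.1% of all genes, among them CCNE1, CCNE2 and CDK2, which form the cyclin E kinase that acts after cyclin D, and CDKN2D, the INK4 gene of p19. With olaparib in shControl, none of 27 open genes lost a start interval in LOVO and none of 27 in RKO, beside 7.04% and 2.23% of all genes. With shMETTL3 under olaparib none of 27 did in LOVO and none of 29 in RKO, beside 1.35% and 1.53%. In RKO shControl E2F6 and SKP1, 2 of 3 closed genes beside 11.5% of all closed genes, were open with olaparib and closed in the scored untreated list. Both were open in the merged untreated list, so against it neither was gained. In LOVO under olaparib AMBRA1, 1 of 3 closed genes beside 13.0%, was open with shMETTL3 and closed with shControl. A pair of genes was singled out after the values were seen. CDKN1C, the gene of p57, was open in no LOVO list and all 5 RKO lists. CCNA1, a cyclin A gene of the germ line, was closed in all 10 lists.

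LOVO was also set against RKO, to describe the lines rather than the hairpins. In the merged untreated shControl lists the same 9 genes were open in LOVO and RKO, so none was lost or gained, beside 14.2% and 10.1% of all genes. With shControl and olaparib none differed either (9.70% and 13.4%). In the scored untreated shControl lists CCND1 was open in LOVO and closed in RKO, 1 of 2 closed genes beside 21.8%, and none was lost (5.80%). In untreated shMETTL3 LOVO lacked CDK6, 1 of 3 genes open in RKO beside 18.7%, and had CDK4, CDKN2C and RB1, 3 of 7 closed in RKO beside 21.1%. With shMETTL3 and olaparib LOVO lacked CCND2, 1 of 10 beside 6.44%. Of the 88 regions 27 were in LOVO lists only and 20 in RKO lists only, 30.7% and 22.7%, against 44.7% and 23.8% of all 72261 regions. All 10 lists shared 8 regions (9.09%), against 4337 of all 72261. The windows of CCND2, CCND3, CDK4, CDK6, CDKN2A and CDKN2B held at least 1 each. Only the regions at the inner CCND3 start and the CDKN2B start lay at a start of any of the 10 genes. In at least 4 lists of one line and none of the other were 14 regions of LOVO (15.9%, against 15.6% of all regions) and 3 of RKO (3.41%, against 3.52%). The shares of such recurring regions thus lay near those of the whole lists. They were spread unevenly, with 8 of the 14 at CDK6 and none of either line at CCND1, CDKN2C or RB1.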

How the data were processed

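ATAC-seq libraries of LOVO and RKO were made with a VAHTS kit, per the labels. The submitters' processing notes name hg38 and 4 programs, with roles not stated (MACS2 2.2.7.1, DiffBind 3.0.15, Trim Galore 0.6.6, Bowtie2 2.4.2). Read shifting, read filters and the combining of samples are steps the sources used here do not describe. The authors' deposited lists number 10, all for groups; 6 carry a score, whose MACS2 column is unstated, and name their peaks after replicate 1. Deposited scores served only to rank or filter within a list. Which untreated shControl list holds the batch-labelled samples is not given.

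With Python 3.11.15, pandas 2.3.3 and scipy 1.17.1, intervals were intersected (1 bp or more) with windows and with 1000 bp around the starts of 20033 protein-coding genes (RefSeq, GRCh38.p14). Starts were the 5′ boundary and all starts of the promoter table, which gives the strand of 15842 genes, and either gene end otherwise (CCND1 and CCND2 among them). Neighbouring genes are named by the same rule. Exon, intron and UTR positions were not assigned. Distances run from the outer start to the middle of a region. Shares have 95% exact (Clopper-Pearson) intervals for counting error alone. All 10 genes are named, with up to 4 other pathway genes per state. Genes, lists and rules were chosen with earlier results of these data known. The code was tested on the merged shControl lists with intervals dropped at random, 13389 of 33474 in LOVO and 11191 of 27978 in RKO. It found all of the dropped intervals. No interval was added, so the calls of gains were not tested. Alternatives changed the windows, the overlap, the start definition, the untreated shControl list, and limits on width and score.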

Additional observations from a re-analysis of the deposited data

Results flagged for a closer look

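With olaparib, the number of intervals over the 10 windows in shControl lay below the untreated number in LOVO and above it in RKO. The shControl list with olaparib held 0.766 times as many as the scored untreated list in LOVO (49 against 64) and 1.132 times as many in RKO (43 against 38). The difference between the lines was not tested, and the whole lists moved likewise, by 0.777 and 1.22 times. Against the merged untreated list both directions turned, to 1.09 in LOVO and 0.977 in RKO.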

How the results depend on the processing

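No paired analysis was possible because no list gives separate values for 2 or more replicates of its group. Of 136 alternative values for 24 results, 110 were labelled the same as the first value, 23 moved and 3 turned. That label allowed shifts: untreated LOVO shMETTL3 had a kept share of 48.5% with the reference limited to its widest intervals, in place of 40.0%. It compared numbers of genes, not names, and held where CCND2 replaced CCND1 as the gene gained in LOVO under olaparib with 2000 bp windows. It also covered the gain of 0 for untreated RKO shMETTL3 with that window, where no gene was closed in the reference. The 110 is therefore not a count of unchanged results. For untreated shMETTL3, 4 to 5 genes lost the start interval in LOVO and 4 to 7 in RKO under the alternatives run. The kept share of RKO window intervals was 6.82% with 50% overlap required and 60.0% with the reference limited to its widest intervals, where the ratio of intervals was 0.750 in place of 0.341. That limit shortens only the reference.

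For olaparib in shControl, genes lost in LOVO were 0 with 2000 bp windows, where the region at -2.0 kb counted for CCND1. They were also 0 with the score limit, which left CCND1 no start interval to lose. They were 2 with either gene end, with the 5′ boundary alone (CDK6 added) or with 50% overlap (CDKN2A added). In RKO 1 gene was lost with the merged reference (CCND1), and with the score limit 1 was lost (CDKN2A) and 1 gained (CCND3). Kept shares were 88.9% in LOVO and 79.5% in RKO with the merged reference, and 52.4% in RKO with the score limit and 100% with 10 kb flanks. The interval ratio turned to 1.09 in LOVO and 0.977 in RKO with the merged reference and to 0.667 in RKO with the score limit.

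For shMETTL3 under olaparib, genes gained in LOVO were 2 with either end or the 5′ boundary alone (CDK6 added) and 0 with the score limit. With 2000 bp windows CCND1 already counted as open with shControl, and CCND2 was gained instead. In RKO they were 0 with 2000 bp windows, where all 10 genes were already open with shControl, and 0 with the score limit. They were 1 with the left end of CCND1 and CCND2, and 3 with either end or the 5′ boundary alone (CDK6 added). In both lines the score limit removed the intervals gained at first. With 50% overlap (CDKN2B) or the score limit (CDK6), 1 gene was lost in RKO. Unless the limit's own construction shows it, the cause was not tested. The 5′ boundary and left-end settings were chosen after seeing the data.

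Depth is unknown, so an absent interval does not show closed chromatin.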
